A study of Homo sapiens with 8 samples.

Results

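The 31 genes described here are established targets of the transcription factor p53, chosen by symbol from a list of known targets. The choice was made with earlier results of these data known. They were chosen for roles beyond the arrest of the cell cycle, though some, such as BTG2, GADD45A and SERTAD1, also bear on growth or the cell cycle. All 31 were among the 17927 genes of the RNA-seq table, and 30 were among the 14019 genes of the Ribo-seq table. SERTAD1 was not analysed in Ribo-seq. The established line SH-SY5Y, human neuroblastoma cells with noradrenergic features, was compared between cells with a short hairpin RNA against RPS29 (shRPS29, the knockdown) and cells with a control hairpin (shCONT). RPS29 is a protein of the small ribosomal subunit. Each assay had 2 knockdown and 2 control libraries, 8 in all. The labels give no time after hairpin delivery, no hairpin sequence and no statement that replicates came from separate cultures. The p-values therefore measure the spread between these libraries, which may be technical.

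p53 is a tetrameric transcription factor that is kept low by the ubiquitin ligase MDM2. When ribosome assembly is disturbed, free ribosomal proteins can bind MDM2 and so stabilise p53, and DNA damage stabilises it through kinases. Its targets repair DNA, open death receptor and mitochondrial death pathways, change metabolism and autophagy, and feed back on p53 and on growth signalling. In cultures measured in bulk, fewer cells that express a gene and less RNA per cell cannot be told apart.

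Targets of p53 are bound at a response element made of a pair of half-sites of 10 letters. A RefSeq window per gene, from 250 bases before to 50 bases after an annotated start, was searched for such a pair. Both cores had to be intact, with at most 3 mismatches in the other 12 letters and 0 to 13 bases between the half-sites. The half-site is its own reverse complement, so the search covers both strands, and matches can overlap one another. Windows were found for 24 of the 31 members, and 2 held a match, AEN and GDF15, which is 8.33% of them against 4.50% of all 27305 windows. With no base between the half-sites the same 2 members matched, against 0.418% of all windows. These 2 sequences are shown because the genes that carry them are among the members whose RNA rose. Each is given 5′ to 3′ on the plus strand of GRCh38.p14 with the matched pair of half-sites in capitals. The AEN match has 2 mismatches and lies 34 to 15 bases before the annotated start used. That start lies inside the RefSeq span of AEN (chr15:88604683-88632281) and is not its first base. The GDF15 match has 3 mismatches and lies 28 to 47 bases after its start. The AEN stretch is chr15:88621090-88621369 and the GDF15 stretch is chr19:18385908-18386205.
AEN: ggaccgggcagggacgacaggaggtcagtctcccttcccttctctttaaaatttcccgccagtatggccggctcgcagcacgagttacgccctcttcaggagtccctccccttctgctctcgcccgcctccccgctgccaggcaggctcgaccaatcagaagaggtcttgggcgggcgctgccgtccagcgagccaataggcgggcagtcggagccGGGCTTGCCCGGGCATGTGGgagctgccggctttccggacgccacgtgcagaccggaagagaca
GDF15: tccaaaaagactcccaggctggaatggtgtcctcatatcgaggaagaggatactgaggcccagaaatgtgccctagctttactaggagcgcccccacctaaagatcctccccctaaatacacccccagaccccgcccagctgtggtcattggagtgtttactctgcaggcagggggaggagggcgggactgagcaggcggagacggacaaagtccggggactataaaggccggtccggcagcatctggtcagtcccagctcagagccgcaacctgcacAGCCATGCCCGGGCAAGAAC
A match describes the letters alone, and its absence from the other 22 windows says nothing about binding elsewhere.

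RNA-seq libraries held 17539104 to 19156104 counts and Ribo-seq libraries 2630463 to 4375971. RPS29 RNA had 147 and 117 counts in the knockdown against 2430 and 2872 in the controls, a log2 fold change of -4.40 (SE 0.115, edgeR adjusted p = 6.32e-12), and its footprints had 28 counts in each knockdown library against 199 and 129 in the controls. Of the noradrenergic marker genes, PHOX2A, HAND2, GATA3, ISL1 and DBH each had at least 2568 RNA counts in every library, while TH had 1 and 0 counts in the knockdown and 4 and 2 in the controls. Spearman correlations between libraries across genes were 0.985 to 0.993 in RNA-seq and 0.455 to 0.827 in Ribo-seq. Ribo-seq knockdown replicate 1 stood apart, at 0.732 with the other knockdown library and at 0.528 and 0.455 with the controls, while the other knockdown library was at 0.743 and 0.692 with them.

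RNA of most of these targets was higher after RPS29 knockdown. Of 31 members tested, 18 rose and 4 fell with an edgeR adjusted p below 0.05, and 9 did not pass. Over all 14723 genes tested, 14.4% were called higher and 16.3% lower. Because the members were chosen with earlier results known, the shares are set side by side as a description only. The median log2 fold change was 0.43 over the members and 0.01 over all genes. Both knockdown libraries lay above both controls for 26 members and below them for 4, against 32.3% and 32.9% of all genes. Changes were mostly modest. GDF15, FAS, TNFRSF10A and PHLDA3 rose more than 2-fold, and 9 of the 22 called members changed less than 1.5-fold.

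**Figure D1:**
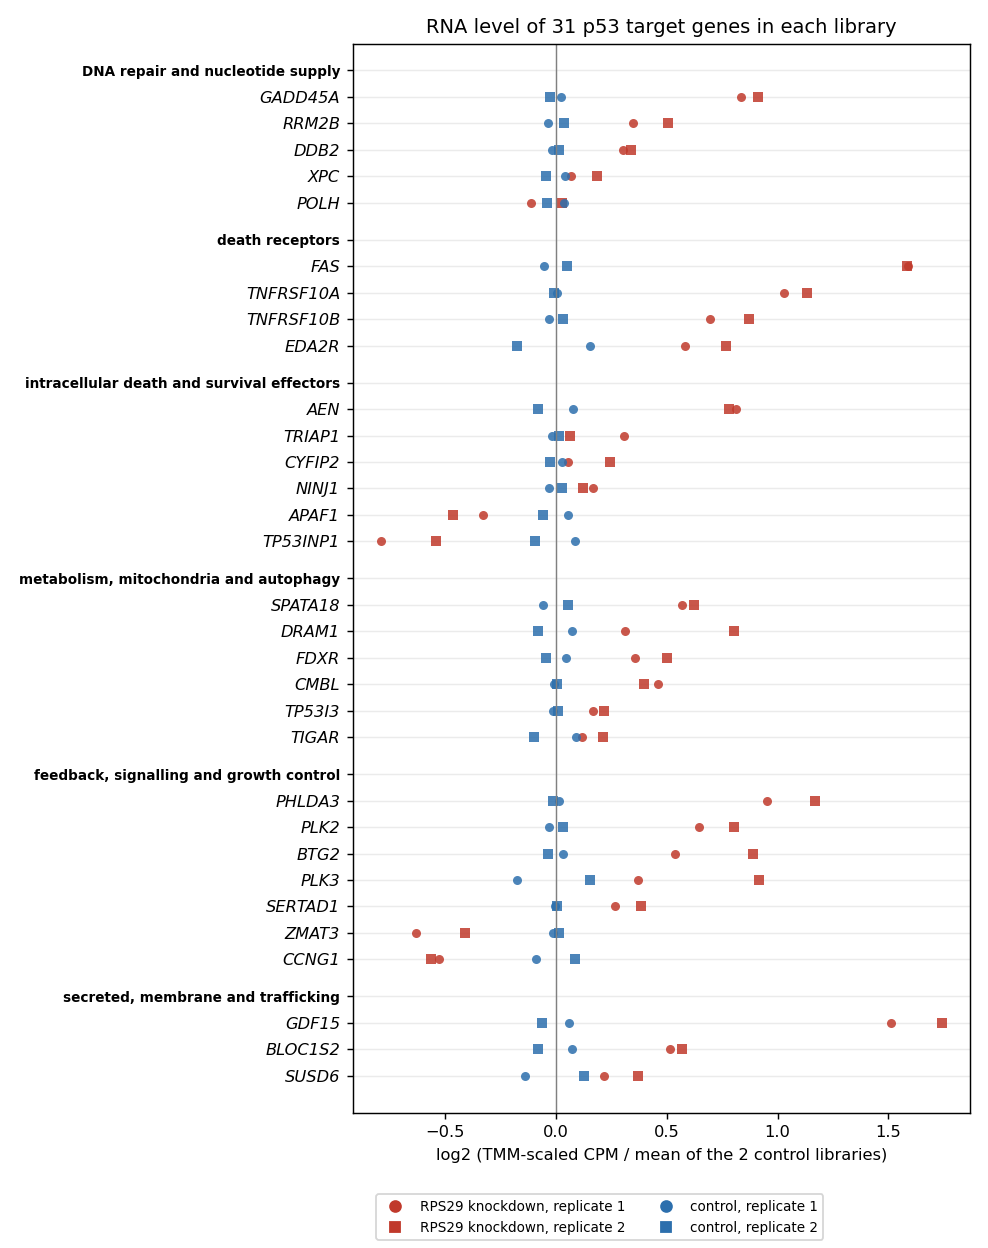
RNA level of each of the 31 members in every library, as log2 of TMM-scaled CPM over the mean of the 2 control libraries; red marks knockdown and blue control libraries, circles replicate 1 and squares replicate 2. All 4 genes of the death receptor group and GDF15 lie right of both controls in both knockdown libraries. TP53INP1, ZMAT3, CCNG1 and APAF1 lie left of both controls in both.

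The death receptor group, which here takes in the related receptor EDA2R, was the one in which every member rose. Of all genes tested, 14.4% were called higher. FAS, the receptor of FAS ligand, had 9.84 and 9.82 CPM (counts scaled to library size with TMM factors) in the knockdown libraries, against 3.16 and 3.40 CPM in the controls. The knockdown libraries nearly coincided, far above both controls (log2 fold change 1.58, SE 0.201, edgeR adjusted p = 4.37e-05). FAS overlaps ACTA2 in the RefSeq annotation (chromosome 10, positions 88964050 to 89017059 for FAS, GRCh38.p14). ACTA2 RNA rose too, with 853 and 826 counts in the knockdown against 433 and 502 in the controls (log2 fold change 0.77), while FAS had 192 and 178 counts against 56 and 61. The library kit marks strand, but whether counting used it is not given, so reads shared by this pair cannot be told apart. The part of ACTA2 in the FAS result was not tested. In all, 9 of the 31 members overlap another protein-coding gene, and their values are uncertain to the extent that reads were shared.

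TNFRSF10A and TNFRSF10B encode the receptors of the death ligand TRAIL. TNFRSF10A had 5.48 and 5.90 CPM in the knockdown and 2.70 and 2.68 CPM in the controls, from 107 counts in each knockdown library and 48 in each control (log2 fold change 1.08, SE 0.245, edgeR adjusted p = 0.00385). TNFRSF10B was at 224 and 254 CPM in the knockdown against 136 and 142 CPM in the controls (0.78, SE 0.0772, adjusted p = 4.63e-06). The groups did not overlap for either receptor. RHOBTB2, which overlaps the TNFRSF10B span, fell (-0.54, adjusted p = 0.00225). EDA2R, a receptor of the same family that binds an ectodysplasin isoform, had 22.7 and 25.8 CPM in the knockdown against 16.8 and 13.4 CPM in the controls (0.68, SE 0.132, adjusted p = 0.00131).

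Among genes of DNA repair and nucleotide supply, 3 of 5 rose and 0 fell, against 14.4% and 16.3% of all genes. Log2 fold changes ran from -0.04 to 0.87. GADD45A, a stress sensor that interacts with repair and checkpoint proteins, had 70.7 and 74.7 CPM in the knockdown against 40.3 and 39.0 CPM in the controls (0.87, SE 0.0821, edgeR adjusted p = 3.14e-06). RRM2B, the p53-inducible subunit of ribonucleotide reductase, was at 54.2 and 60.6 CPM in the knockdown against 41.6 and 43.7 CPM in the controls (0.43, SE 0.0876, adjusted p = 0.00185). DDB2, which recognises ultraviolet damage, was at 49.1 and 50.3 CPM against 39.3 and 40.2 CPM in the controls (0.32, SE 0.0845, adjusted p = 0.00983). Its call ended without control replicate 1 (adjusted p = 0.115) or control replicate 2 (0.0734), at log2 fold changes of 0.30 and 0.34. XPC, the damage sensor of nucleotide excision repair, was at 71.6 and 77.6 CPM in the knockdown and 70.2 and 66.2 CPM in the controls, and was not called (0.13, SE 0.0808, adjusted p = 0.252). POLH, the translesion polymerase eta, was at 31.1 and 34.2 CPM in the knockdown and 34.4 and 32.7 CPM in the controls (-0.04, SE 0.0975, adjusted p = 0.795). Its libraries overlapped between groups. GTPBP2, which overlaps the POLH span, fell (-0.76, adjusted p = 7.23e-05).

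Of 6 intracellular death and survival effectors, 1 rose and 2 fell, or 16.7% and 33.3%, against 14.4% and 16.3% of all genes. AEN, a nuclease of apoptosis, had 161 and 158 CPM in the knockdown against 96.7 and 86.7 CPM in the controls (log2 fold change 0.80, SE 0.0764, edgeR adjusted p = 3.74e-06). TP53INP1, a stress protein of apoptosis and autophagy, fell to 33.4 and 39.7 CPM in the knockdown, against 61.4 and 54.1 CPM in the controls (-0.66, SE 0.1004, adjusted p = 1.94e-04). It was the member with the largest decrease. APAF1, the scaffold of the apoptosome, was at 29.5 and 26.8 CPM in the knockdown against 38.4 and 35.5 CPM in the controls (-0.39, SE 0.0995, adjusted p = 0.00783), a call that ended without control replicate 1 (-0.34, adjusted p = 0.103). TRIAP1, an inhibitor of apoptosis, CYFIP2, a subunit of the WAVE actin complex, and NINJ1, which ruptures the plasma membrane in lytic death, had log2 fold changes of 0.19, 0.15 and 0.15. None of these 3 was called. Both knockdown libraries lay above both controls for each, an order that held for 32.3% of all genes. TRIAP1 was called without knockdown replicate 2 (0.31, adjusted p = 0.00462) and CYFIP2 without knockdown replicate 1 (0.24, adjusted p = 0.00202).

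Of 6 genes of metabolism, mitochondria and autophagy, 4 rose and 0 fell, against 14.4% and 16.3% of all genes. Log2 fold changes ran from 0.17 to 0.60. SPATA18, a factor of mitochondrial quality control, had 11.8 and 12.3 CPM in the knockdown against 7.66 and 8.30 CPM in the controls (0.60, SE 0.155, edgeR adjusted p = 0.00919), and was not called without control replicate 1 (0.54, adjusted p = 0.0635). DRAM1, a lysosomal membrane protein of autophagy, was at 30.3 and 42.7 CPM in the knockdown against 25.7 and 23.1 CPM in the controls (0.58, SE 0.137, adjusted p = 0.00520). The knockdown libraries of DRAM1 differed, and its log2 fold change was 0.32 without knockdown replicate 2. FDXR, the mitochondrial ferredoxin reductase, was at 52.7 and 58.1 CPM against 42.4 and 39.8 CPM in the controls (0.43, SE 0.0878, adjusted p = 0.00184). CMBL, a cytosolic hydrolase, was at 81.1 and 77.6 CPM against 58.7 and 59.2 CPM in the controls (0.43, SE 0.0778, adjusted p = 7.51e-04). TP53I3, a quinone oxidoreductase, and TIGAR, a phosphatase that lowers glycolysis, were at 0.19 (adjusted p = 0.0891) and 0.17 (adjusted p = 0.242) and were not called.

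Genes of feedback, signalling and growth control split into 4 that rose, 2 that fell and 1 that was not called. The shares called higher and lower were 57.1% and 28.6%, against 14.4% and 16.3% of all genes. PHLDA3, which competes with the kinase AKT for membrane lipids, had 135 and 157 CPM in the knockdown against 70.4 and 69.1 CPM in the controls (log2 fold change 1.06, SE 0.0837, edgeR adjusted p = 5.99e-07). BTG2, an antiproliferative cofactor of mRNA deadenylation, was at 34.6 and 44.1 CPM in the knockdown against 24.4 and 23.2 CPM in the controls (0.72, SE 0.118, adjusted p = 3.35e-04). The polo-like kinases PLK2 and PLK3 were at 0.72 (adjusted p = 0.00206) and 0.67 (adjusted p = 0.00953). PLK2 had 253 and 262 counts in the knockdown against 144 and 152 in the controls. PLK3 had 287 and 389 counts in the knockdown against 179 and 227 in the controls, and its call ended without knockdown replicate 2 (0.37, adjusted p = 0.0646). SERTAD1, a regulator of cyclin D and E2F activity, was at 0.33 and was not called (adjusted p = 0.194). CCNG1, cyclin G1, which brings a phosphatase to MDM2, fell to 94.1 and 91.9 CPM in the knockdown, against 127 and 144 CPM in the controls (-0.54, SE 0.0786, adjusted p = 1.29e-04). ZMAT3, an RNA-binding zinc finger protein, fell to 56.8 and 66.2 CPM in the knockdown, against 87.0 and 88.7 CPM in the controls (-0.52, SE 0.0862, adjusted p = 4.11e-04). The groups did not overlap for CCNG1 or ZMAT3. NUDCD2, which overlaps the CCNG1 span, was at -0.06 (adjusted p = 0.685).

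The last group held a secreted, a membrane and a trafficking protein. GDF15, a secreted stress cytokine, had the largest increase of the 31 members, with 120 and 141 CPM in the knockdown against 43.8 and 40.4 CPM in the controls (log2 fold change 1.63, SE 0.0921, edgeR adjusted p = 4.19e-08). BLOC1S2, a subunit of complexes that position lysosomes, was at 43.9 and 45.7 CPM against 32.4 and 29.2 CPM in the controls (0.54, SE 0.0943, adjusted p = 5.61e-04). SUSD6, a membrane protein with a sushi domain, was at 21.4 and 23.8 CPM in the knockdown and 16.7 and 20.1 CPM in the controls and was not called (0.30, SE 0.124, adjusted p = 0.0866). It was called without knockdown replicate 1 (0.37, adjusted p = 0.0207).

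A second list of 39 p53 targets, which includes arrest genes and mitochondrial death genes, had 35 genes tested in RNA-seq. It too was chosen with earlier results of these data known. Of these 15 rose and 0 fell, against 14.4% and 16.3% of all genes, with a median log2 fold change of 0.24. At an unadjusted p below 0.05 there were 20 of them (57.1%), against 40.4% of all genes. Leaving out 1 library gave 10 to 18 that rose, the lowest without either control replicate. CDKN1A, the cell-cycle inhibitor p21, had 461 and 558 CPM in the knockdown against 196 and 187 CPM in the controls (1.41, SE 0.0885, edgeR adjusted p = 1.06e-07). CSF1, a macrophage growth factor, and SESN2, a stress-induced regulator of mTORC1, followed at 0.77 (adjusted p = 1.15e-04) and 0.74 (adjusted p = 4.91e-04). MDM2, a target that also degrades p53, was at 125 and 135 CPM in the knockdown and 134 and 124 CPM in the controls (0.01, SE 0.0751, adjusted p = 0.933), and its libraries overlapped between groups.

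Ribosome footprints of the same genes were sparse. The 30 listed members together had 864 and 1341 Ribo-seq counts in the knockdown and 1160 and 1037 in the controls, and a median member had 18.5 and 29.5 counts in the knockdown and 27 and 26.5 in the controls. Of these 30, 27 passed the count filter, while TNFRSF10A, BTG2 and BLOC1S2 did not. Ribo-seq counts in genes with almost no RNA were taken as a background in proportion to gene span. From 142 genes under 0.1 RNA CPM, the median rate was 0.346 and 0.224 counts per kb in the knockdown and 0.0623 and 0.0472 in the controls. At these rates the background expected over the spans of the 30 members was 40.1% and 16.7% of their counts in the knockdown and 5.38% and 4.55% in the controls. Rates pooled over the 142 genes gave 60.1% and 41.1% in the knockdown and 31.8% and 16.5% in the controls, but 1 gene held 14.6% to 63.9% of those counts. Both rates were higher in the knockdown. They used only genes listed in the Ribo-seq table, and genes with almost no RNA may be listed there through their knockdown counts. Whether background itself rose with the knockdown therefore cannot be told, and its part in the footprint results was not tested.

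**Figure D2:**
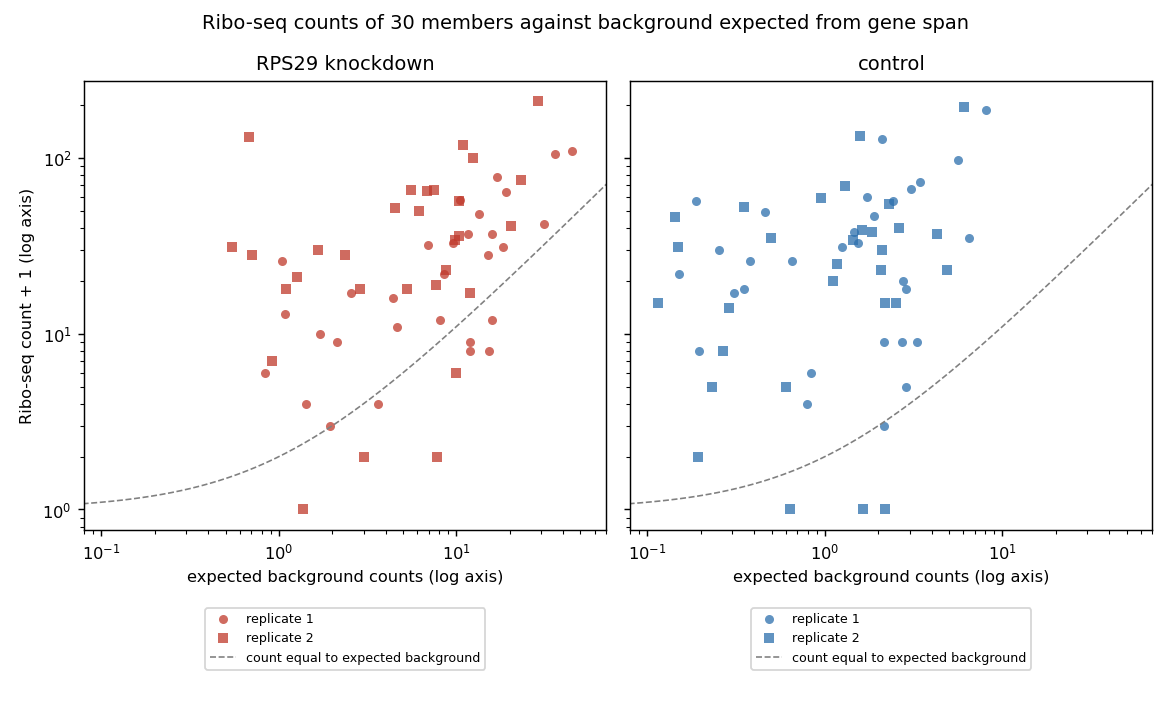
Ribo-seq count plus 1 of each of the 30 members against the background expected from its span at the median rate, on log axes, for knockdown (left) and control libraries (right); the dashed line marks a count equal to that background. In the knockdown 5 and 4 members sit at or under the expected background, against 1 and 3 in the controls.

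In Ribo-seq 0 of the 27 members tested were called higher and 0 lower by edgeR, and DESeq2 and limma-voom called 0 as well. Over all 11853 genes tested, 7.96% were called higher and 0.607% lower. At an unadjusted p below 0.05 there were 3 members, SPATA18 and SUSD6 with more footprints in the knockdown and XPC with fewer, which is 11.1% of the members against 23.1% of all genes. The median log2 fold change was -0.05 over the members and 0.04 over all genes, with a median standard error of 0.809 over the members. Both knockdown libraries lay above both controls for 8 members and below them for 8, against 29.0% and 26.7% of all genes. Among the 29 other p53 targets tested in Ribo-seq, 3 were called higher (SESN1, CDIP1 and TGFA, named after their values were seen) and 0 lower. Their control libraries held 1 to 45 counts each, and 0 were called without control replicate 1. Changes of the size seen in RNA were not detectable at this depth and spread.

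**Figure D3:**
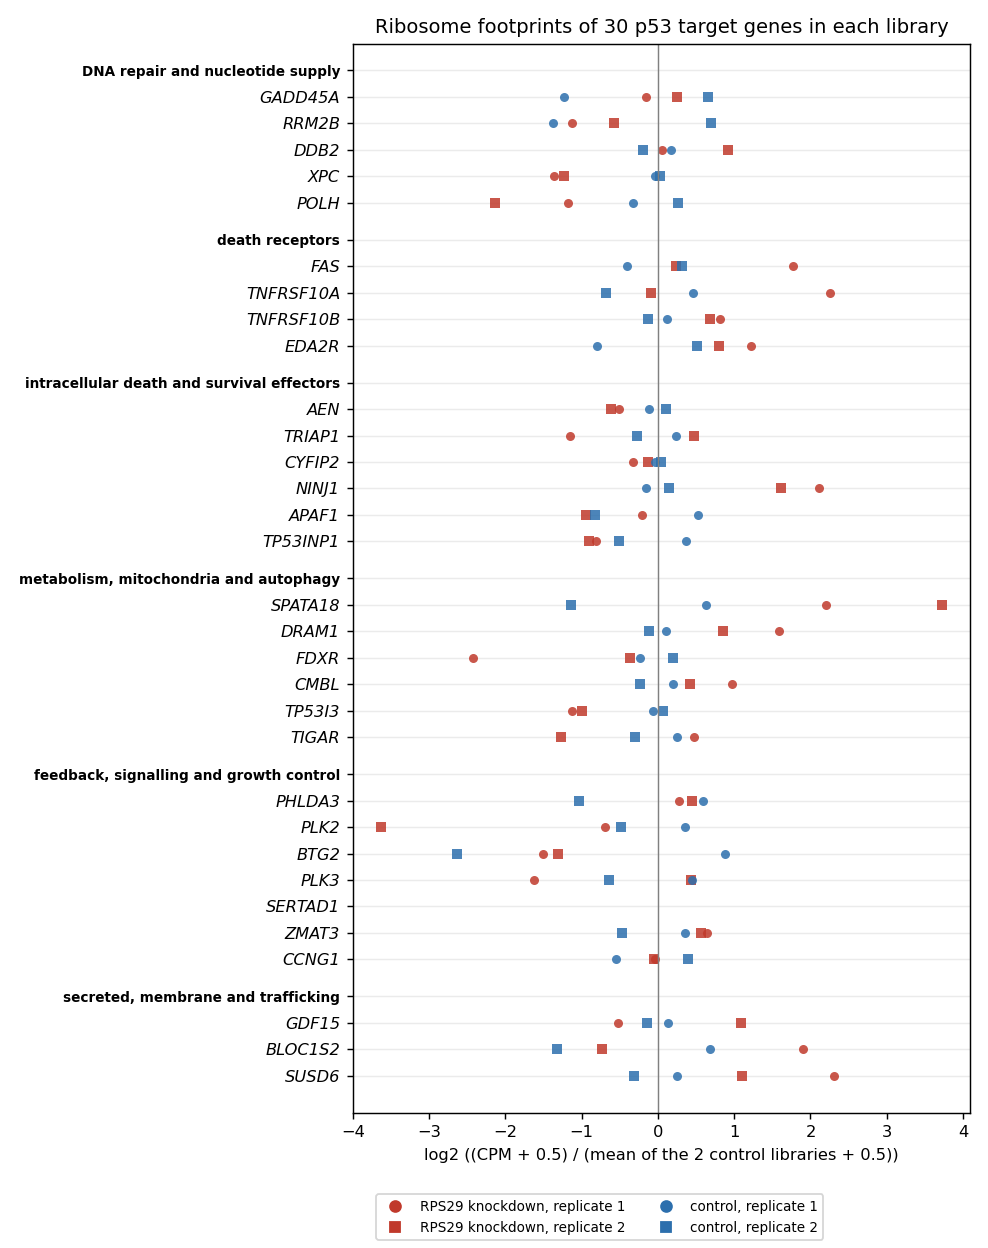
Footprint level of each member in every Ribo-seq library, as log2 of CPM plus 0.5 over the control mean plus 0.5; red marks knockdown and blue control libraries, circles replicate 1 and squares replicate 2. Spread between replicates is wider than in RNA-seq, and XPC and TP53I3 are low in both knockdown libraries while TNFRSF10B is high in both.

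Footprints of the death receptor group were higher in the knockdown in direction. Log2 fold changes were 0.76 to 1.29 for the 3 receptors tested, none of them called. TNFRSF10B, the best covered, had 32.0 and 29.3 CPM in the knockdown against 19.7 and 16.4 CPM in the controls, from 77 and 117 counts against 66 and 54. The groups did not overlap, but the difference was not called (0.76, SE 0.558, edgeR adjusted p = 0.457). Background expected over its span was 16.9 and 11.0 counts in the knockdown and 3.05 and 2.31 in the controls at the median rate, and 25.4 and 26.9 in the knockdown and 18.0 and 8.38 in the controls at the pooled rate. FAS had 30 and 16 counts in the knockdown against 8 and 14 in the controls, with 18.3 and 11.9 background counts expected in the knockdown at the median rate and 27.5 and 29.2 at the pooled rate, and its CPM overlapped between groups. EDA2R had 27 and 33 counts in the knockdown and 8 and 22 in the controls, with 15.1 and 9.77 expected in the knockdown at the median rate and 22.6 and 24.0 at the pooled rate. TNFRSF10A had at most 8 counts in a library, under the 11.98 expected there at the median rate.

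Of the repair genes, XPC and POLH had lower footprint CPM in both knockdown libraries than in either control, and the other 3 overlapped. That order held for 26.7% of all genes tested in Ribo-seq. XPC had 36 and 65 counts in the knockdown against 128 and 132 in the controls, or 15.0 and 16.3 CPM against 38.2 and 40.0 CPM. Both knockdown libraries lay well below both controls, but the Ribo-seq difference itself was not called (log2 fold change -1.32, SE 0.557, edgeR adjusted p = 0.162). POLH had 7 and 5 counts in the knockdown against 19 and 29 in the controls (-1.81, adjusted p = 0.351), and the knockdown counts were below the 15.3 and 9.93 expected from background at the median rate. RRM2B, with 7 and 18 counts against 8 and 38 in the controls, and GADD45A, with 12 and 27 against 7 and 30, overlapped between groups. DDB2 had 21 and 65 counts in the knockdown and 32 and 24 in the controls, and its libraries overlapped as well. Summed over the 5 repair genes, footprints were at 34.5 and 45.1 CPM in the knockdown against 57.9 and 76.7 CPM in the controls, while their RNA was at 277 and 297 CPM against 226 and 222 CPM in the controls. XPC carried the lower footprint sum: the other 4 genes summed to 19.5 and 28.8 CPM in the knockdown and 19.7 and 36.7 CPM in the controls, and overlapped.

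**Figure D4:**
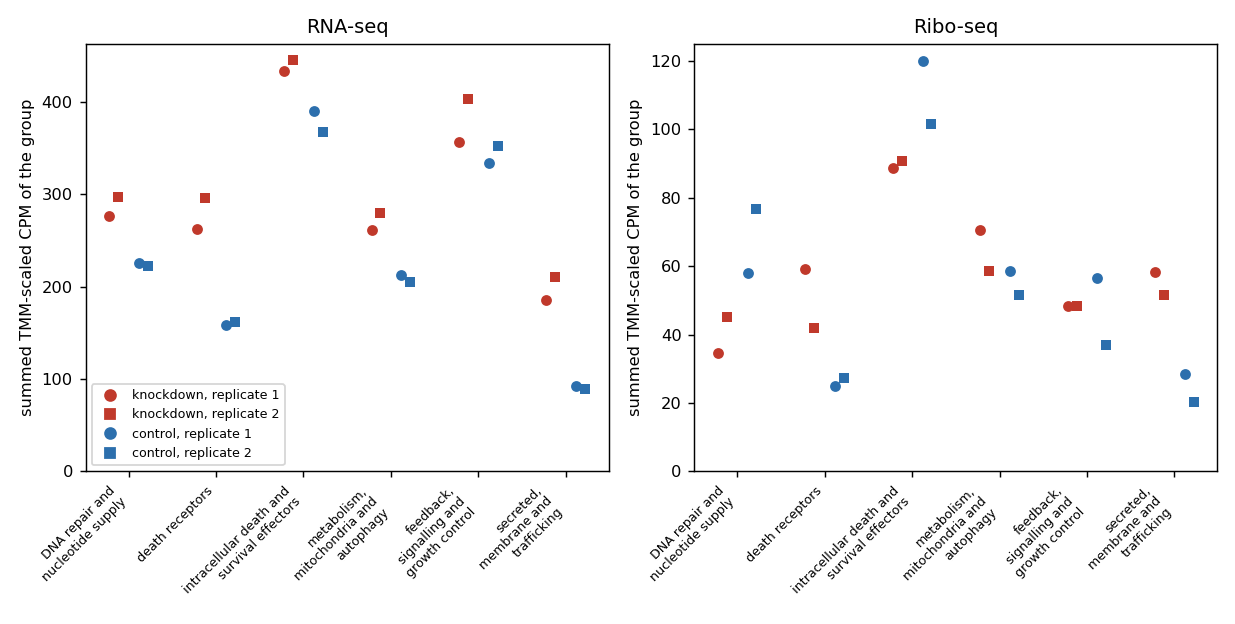
Summed TMM-scaled CPM of each group of members in every library, RNA-seq left and Ribo-seq right, knockdown libraries in red left of controls in blue. In RNA-seq each group lies higher in both knockdown libraries; in Ribo-seq the repair group (through XPC) and the intracellular effector group lie lower and the death receptor and secreted, membrane and trafficking groups higher.

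Among death and survival effectors AEN had 32 and 49 counts in the knockdown against 59 and 68 in the controls, or 13.3 and 12.3 CPM against 17.6 and 20.6 CPM (log2 fold change -0.58, SE 0.609, edgeR adjusted p = 0.630). Its footprints were thus lower in both knockdown libraries while its RNA was higher in both. The AEN span holds the microRNA genes MIR7-2, MIR1179 and MIR3529, and reads of these would add to its counts if counting ran over the whole gene. The same holds for GDF15, whose span contains MIR3189. CYFIP2, the best covered member, had 109 and 209 counts in the knockdown and 186 and 194 in the controls (-0.22, adjusted p = 0.854). Over its span of 129 kb, background expected at the median rate was 44.8 and 29.0 counts in the knockdown and 8.07 and 6.11 in the controls. At the pooled rate it was 67.1 and 71.2 in the knockdown and 47.8 and 22.2 in the controls. NINJ1 had 15 and 17 counts in the knockdown against 3 and 4 in the controls (2.27, SE 1.29, adjusted p = 0.316), a difference that rests on few counts. TP53INP1 had 11 and 17 counts against 37 and 19 in the controls (-0.92, adjusted p = 0.596). APAF1 and TRIAP1 overlapped between groups.

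Metabolic and mitochondrial genes went both ways in footprints. TP53I3 had 16 and 29 counts in the knockdown against 48 and 52 in the controls, or 6.65 and 7.27 CPM against 14.3 and 15.8 CPM (log2 fold change -1.10, SE 0.708, edgeR adjusted p = 0.384). FDXR had 3 and 27 counts in the knockdown against 25 and 34 in the controls (-1.10, adjusted p = 0.545). CMBL had 57 and 64 counts in the knockdown against 46 and 33 in the controls (0.74, adjusted p = 0.530), and DRAM1 36 and 35 against 17 and 14 (1.33, adjusted p = 0.351). For DRAM1, 15.9 and 10.3 background counts were expected in the knockdown at the median rate and 23.9 and 25.3 at the pooled rate. SPATA18 had 11 and 56 counts in the knockdown against 4 and 0 in the controls (3.89, SE 1.33, adjusted p = 0.0812), where 15.9 and 10.3 were expected from background in the knockdown at the median rate and 23.8 and 25.3 at the pooled rate. It was called without control replicate 1 alone (adjusted p = 0.0231), which leaves a single control with 0 counts. TIGAR overlapped between groups.

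Feedback genes and the remaining members were covered unevenly. ZMAT3, whose RNA fell, had 63 and 99 footprint counts in the knockdown and 72 and 39 in the controls, or 26.2 and 24.8 CPM against 21.5 and 11.8 CPM (log2 fold change 0.61, SE 0.585, edgeR adjusted p = 0.584). Background expected for ZMAT3 in the knockdown was 19.1 and 12.4 counts at the median rate and 28.7 and 30.4 at the pooled rate. CCNG1, whose RNA fell too, had 31 and 51 counts in the knockdown and 30 and 58 in the controls (-0.05, adjusted p = 0.979). PLK2 had 8 and 0 counts in the knockdown against 25 and 13 in the controls (-1.86, SE 1.42, adjusted p = 0.476). PHLDA3 had 9 and 17 against 16 and 4, and PLK3 2 and 20 against 17 and 7, so neither order of groups was clear. BTG2 had 3 and 6 counts in the knockdown and 29 and 1 in the controls, where the controls themselves disagree. GDF15 had 25 and 131 counts in the knockdown and 56 and 45 in the controls, or 10.4 and 32.9 CPM against 16.7 and 13.6 CPM. Its knockdown libraries stand on either side of the controls (0.52, SE 0.642, adjusted p = 0.687), and without knockdown replicate 2 the log2 fold change was -0.62. SUSD6 had 105 and 74 counts in the knockdown against 34 and 22 in the controls (1.87, SE 0.643, adjusted p = 0.0814), over a span of 104 kb for which 35.8 and 23.2 background counts were expected in the knockdown and 6.45 and 4.88 in the controls at the median rate. At the pooled rate 53.7 and 57.0 were expected in the knockdown and 38.2 and 17.7 in the controls, against 34 and 22 control counts observed.

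Footprints per RNA, the translational efficiency, were compared through the interaction of assay and condition over all 8 libraries. Libraries were scaled with TMM within each assay, so the values are relative to the typical gene. A change in footprints or RNA shared by most genes would not be seen. The median log2 change was -0.31 over the members and -0.06 over all genes. Of 27 members 0 were called higher and 1, XPC, lower, against 2.9% and 1.35% of 10648 genes tested. Of 28 other p53 targets 1, SESN1, was called higher (2.82, edgeR adjusted p = 0.0442) and 0 lower. The log2 change of XPC was -1.45 (SE 0.324, edgeR adjusted p = 0.0479), its RNA being nearly level and its footprints lower in both knockdown libraries. This call ended in 8 of 13 alternatives, among them each that left out an RNA-seq library, with adjusted p from 9.57e-04 to 0.286 and log2 changes from -1.59 to -1.13. AEN (-1.38, adjusted p = 0.0549), NINJ1 (2.13, adjusted p = 0.0730) and TP53I3 (-1.296, adjusted p = 0.0796) came next and were not called. A single spread per gene was fitted to libraries of both kinds, and the Ribo-seq libraries differed more among themselves.

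**Figure D5:**
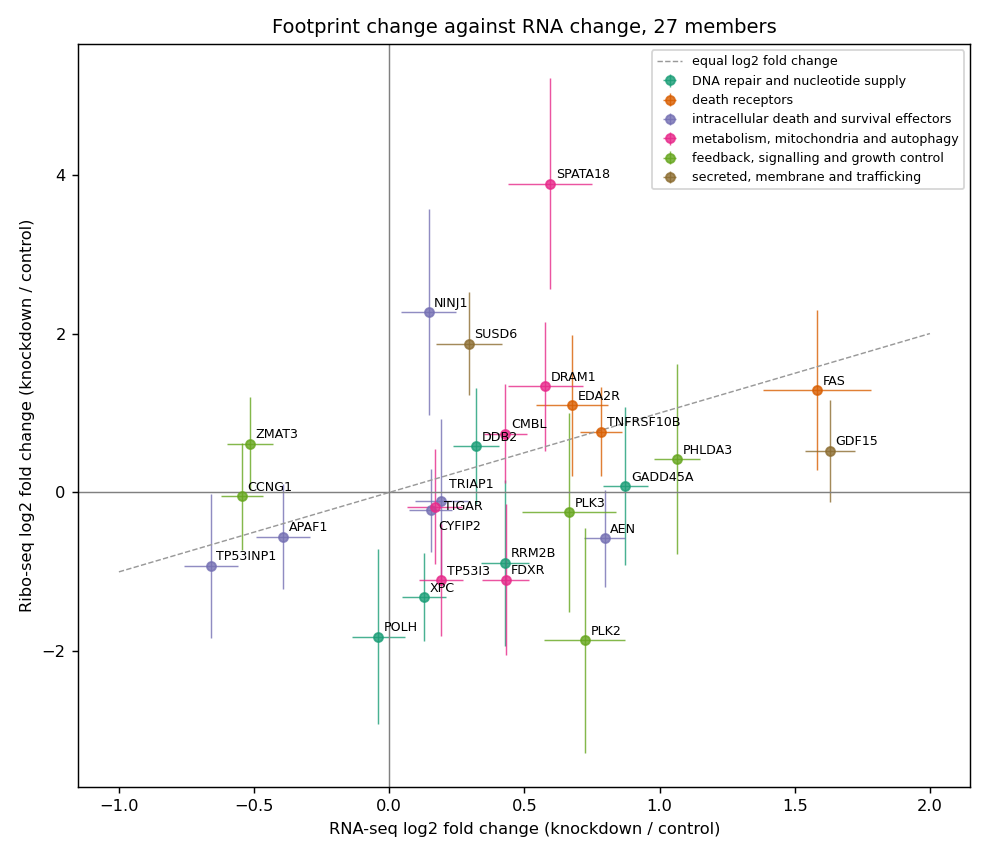
Ribo-seq log2 fold change against RNA-seq log2 fold change (knockdown over control) for the 27 members tested in both, with standard errors as bars and colours for the groups; the dashed line marks equal changes. TNFRSF10B lies on the line, XPC, AEN, TP53I3 and PLK2 lie under it and NINJ1, SUSD6 and SPATA18 above it, with vertical bars longer than the horizontal ones.

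Whether footprints followed RNA was read across the 27 members tested in both assays. The log2 fold changes had the same sign in 16 of 27 members (59.3%), against 52.5% of 10648 genes. Among the 5 members with at least 50 Ribo-seq counts in each group mean it was 2. Spearman's rho was 0.27 and Pearson's r 0.25 across the members, and 0.06 and 0.03 across all genes, which are not independent replicates and share libraries and depth. Of the 15 tested members whose RNA rose, 10 had a positive footprint change (66.7%), against 45.5% of the 1722 genes called higher in RNA. Spearman's rho within these 15 was 0.04. Among the 10, the sign of DDB2, GADD45A, PHLDA3 and GDF15 turned when 1 library was left out. So did that of RRM2B and PLK3, which had negative changes. Background expected at the pooled rate was 123%, 77.7%, 73.4% and 69.3% of the knockdown counts of FAS, EDA2R, SPATA18 and DRAM1. For RRM2B and PLK2, with negative changes, it was 147% and 81.6%. The part of background in these signs was not tested. Of the 4 tested members whose RNA fell, 3 had a negative footprint change, against 62.3% of 2109 genes. TNFRSF10B had the closest pair of log2 fold changes, 0.76 in footprints (SE 0.558, not called) and 0.78 in RNA. The change of its ratio was -0.02 (SE 0.321), from the fit with a single spread per gene over both assays. That standard error is smaller than the one of the footprint change, so the value does not establish that footprints followed RNA. The standard errors of footprint changes leave room for both equal and opposite changes in most members.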

How the data were processed

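RNA-seq and Ribo-seq were deposited as whole-number counts per gene symbol, 1 table per assay. Per the submitters' processing notes, the authors used Trim Galore, Salmon, Bowtie2, STAR and featureCounts and the hg38 build. The role of each tool in each table, its version, the annotation and strand settings were not given in the sources used here. Counts over whole genes would include intronic and small RNA reads. Libraries were grouped by title, 2 per group, with totals of 17539104 to 19156104 counts in RNA-seq and 2630463 to 4375971 in Ribo-seq.

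Genes were tested with edgeR 4.0.16 (quasi-likelihood F test, TMM, filterByExpr) in R 4.3.3, with Benjamini-Hochberg adjustment over all genes and a threshold of 0.05. The assay-by-condition interaction was fitted over all 8 libraries with TMM within each assay. Standard errors are the absolute log2 fold change over the square root of F. The fits were also run on simulated counts with known changes. Recovery rates are not given here, so that run is no measure of power in Ribo-seq or translational efficiency. RefSeq (GRCh38.p14) gave spans, matched for 17828 RNA-seq and 14013 Ribo-seq symbols, and promoter windows. Alternatives were RLE scaling, DESeq2 1.42.0, limma-voom (limma 3.58.1), count filters, low-background genes, a replicate block and each library left out. All 31 members are named. Of the other p53 targets, CDKN1A, MDM2 and the 3 with the largest called change each way are named. The members and lists were chosen with earlier results of these data known. Some checks of single genes are not reported here.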

Additional observations from a re-analysis of the deposited data

Results flagged for a closer look

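The changes in RNA and in footprints of XPC differed by the interaction test, with a log2 change of translational efficiency of -1.45 in the knockdown relative to the controls (SE 0.324, edgeR adjusted p = 0.0479). XPC footprints were at 15.0 and 16.3 CPM in the knockdown against 38.2 and 40.0 CPM in the controls, and its RNA was at 71.6 and 77.6 CPM against 70.2 and 66.2 CPM. The background expected over its span was 11.6 and 7.49 counts of 36 and 65 in the knockdown and 2.08 and 1.58 counts of 128 and 132 in the controls at the median rate, which was chosen after seeing the data. At the planned pooled rate it was 17.3 and 18.4 counts in the knockdown and 12.3 and 5.73 in the controls. The call ended in 8 of 13 alternatives, with adjusted p from 9.57e-04 to 0.286 over all 13, among them the replicate block (0.0914), no count filter (0.0648) and each RNA-seq library left out. The part of background or of the single spread per gene in this result was not tested.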

How the results depend on the processing

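In RNA-seq, 18 of the 22 called members stayed called in every alternative in which they were tested, 10 in each case but 9 for TNFRSF10A. The members higher numbered 16 to 20 and those lower 3 to 4 when 1 library was left out. POLH, not called, was at -0.11 to 0.0234. The other p53 targets higher and lower in RNA numbered 10 to 18 and 0 to 1. Ribo-seq counts of calls depended on single libraries: members higher were 0 to 1 with 1 library left out, and 1 (SUSD6) with the replicate block, where other targets lower numbered 1. Other targets higher in Ribo-seq numbered 3, but 0 to 2 with 1 library left out. They numbered 0 when group means had to reach 50 counts, a filter those 3 did not pass, and 0 among low-background genes at the pooled or the median rate. The median log2 fold change of members in Ribo-seq was -0.23 to 0.28 with 1 library left out. It was 0.80 for the 5 members with at least 50 counts, 0.80 for the 3 of low background at the pooled rate, and 0.52 for the 4 at the median rate, an alternative added after seeing the data. Library scaling was recomputed on the genes kept in each of these fits, and CYFIP2 moved from -0.22 to 0.10 with at least 50 counts. The members differ as well, so these medians cannot be compared with the -0.05 over 27 members.

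For translational efficiency, members higher and lower numbered 0 and 1, but 2 and 4 with DESeq2, and 0 to 2 and 0 to 6 with 1 library left out. Members lower numbered 0 without a count filter, with at least 50 counts, with the replicate block and among low-background genes at the pooled or median rate. Other targets higher and lower in translational efficiency numbered 1 and 0, but 2 and 4 with DESeq2, and 0 to 3 and 0 to 10 with 1 library left out. Those higher numbered 0 with at least 50 counts, with the replicate block and among low-background genes at either rate. With at most 2 mismatches, 1 member promoter held a match.

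Signs of Ribo-seq log2 fold changes turned when 1 library was left out, with these ranges: DDB2 -0.024 to 0.96, RRM2B -1.64 to 0.62, GADD45A -0.65 to 1.46, APAF1 -1.14 to 0.26, TRIAP1 -1.40 to 0.52, TIGAR -1.32 to 0.40, CCNG1 -0.49 to 0.48, PLK3 -2.14 to 0.49, PHLDA3 -0.28 to 1.66 and GDF15 -0.62 to 1.12. TRIAP1 was at 0.50 and 0.37 among low-background genes at the pooled and median rate, CYFIP2 at 0.10 with at least 50 counts, and CCNG1 at 0.035 with limma-voom and 0.0174 with the replicate block. Signs of translational efficiency changes turned likewise: DDB2 -0.34 to 0.64, RRM2B -2.04 to 0.24, GADD45A -1.50 to 0.62, FAS -1.29 to 0.26, TNFRSF10B -0.18 to 0.0827, EDA2R -0.19 to 1.29, APAF1 -0.76 to 0.63, TP53INP1 -0.70 to 0.24, TRIAP1 -1.60 to 0.33, TIGAR -1.50 to 0.24 and PHLDA3 -1.33 to 0.63. TNFRSF10B was at 0.31 with at least 50 counts, and TRIAP1 at 0.38 and 0.25 among low-background genes at the pooled and median rate. In such filtered fits library scaling was recomputed on the genes kept, which can move all genes together. The cause of each sign change was not tested. The labels do not say that replicate numbers mark a shared batch, and deviations of same-numbered libraries correlated at -0.04 in RNA-seq and 0.11 in Ribo-seq. The replicate block gave 18 members higher and 4 lower in RNA-seq, as without it.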
